A study of Mus musculus with 28 samples.

Results

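The genes of the synaptic vesicle release machinery were represented by 62 of the 12488 probe sets on the array, for 47 of the 8251 genes that a probe set with a single symbol named. They were chosen by symbol alone. A member had a single gene symbol in the platform annotation that began with Syt, Stx, Vamp, Cplx, Sv2, Synj or Syp, or with Snap and a digit, or was one of Syn1, Syn2, Syn3, Nsf, Napa, Napb and Napg. The prefixes also took in genes that are not part of release itself, such as Snap91 (a clathrin adaptor of vesicle retrieval), Sypl (a relative of synaptophysin outside synapses) and Synj2bp (a mitochondrial outer membrane protein). They took in Stxbp2 and Stxbp3 as well, Munc18 proteins that regulate syntaxins. Probe sets were tested if they were brighter than their array's median signal on 3 or more arrays. This left 46 member probe sets for 38 genes, or 74.19% of the members, against 59.17% of all probe sets other than controls. The other 16 member probe sets had signals between 0.953 and 97.3, and 9 genes had no probe set kept: Snap23, Sypl2, Syt6, Syt7, Syt8, Syt9, Syt10, Sytl4 and Vamp5. Sv2a, Sv2b, Syn1, Syn3, Synj1 and Napg had no probe set that met the rule and were not analysed here.

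Neurotransmitter is released when a docked vesicle fuses with the presynaptic membrane. Fusion is driven by the pairing of a vesicle SNARE, Vamp, with the plasma membrane SNAREs syntaxin and Snap25. Synaptotagmins bind calcium and trigger the step, complexins clamp and assist it, and synapsins hold vesicles in reserve. Nsf and its adaptors, the Nap (SNAP) proteins, take spent SNARE complexes apart so that they can be used again. These proteins are abundant at nerve endings throughout the brain, and most of them are expressed by nearly every neuron.

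Whole brain RNA came from 28 C57BL/6J mice, and each mouse had its own Affymetrix U74Av2 array. Seized groups held 5 alpha7 +/T mice of 8 weeks, 4 beta4 null mice of 7 to 8 weeks and 3 wild-type mice of 7 to 8 weeks, all killed 1 hour after they had seized on an injection of nicotine. Untreated groups held 5 alpha7 +/T mice of 6 to 8 weeks, 5 beta4 null mice of 6 to 9 weeks and 6 wild-type mice of 6 to 9 weeks. Alpha7 +/T mice are heterozygous for the L250T form of the alpha7 nicotinic receptor subunit, and in beta4 null mice the beta4 subunit of these receptors is missing. The nicotine dose was set for each genotype to reach alike seizures, so that dose and genotype cannot be told apart among seized mice, and no group was injected without a seizure. In whole brain, fewer cells of a type and less RNA per cell cannot be told apart. All 5 seized alpha7 +/T mice were 8 weeks old and 4 of the 5 untreated ones were 6 weeks old, so that age and seizure nearly coincide in that genotype. Sample titles begin with LT or B4, whose meaning the labels do not state: all alpha7 +/T mice are LT, all beta4 null mice B4, and wild-type mice are 1 LT and 2 B4 when seized, and 3 of each when untreated.

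The arrays fell into 2 classes by the Gapdh control probe sets, which read the transcript near its 3′ and its 5′ end. The log2 ratio of the 3′ over the 5′ signal ran from -0.48 to 0.096 in 9 low-ratio arrays and from 1.13 to 2.57 in 19 high-ratio arrays, and the threshold between them was 0.5. Low-ratio arrays came from 3 seized and 2 untreated alpha7 +/T mice and from 2 seized and 2 untreated beta4 null mice, and none came from a wild-type mouse. The first principal component of the tested probe sets, which held 41.58% of the variance, separated the classes. The signal check on seizure was met on average over the 3 genotypes. Fos, Fosb, Junb, Egr1 and Nr4a1, genes that neuronal activity induces, rose in 5 of 5 cases (limma, adjusted p at most 0.00503). Tested genotype by genotype, fewer of these 5 genes passed: 3 for alpha7 +/T, 2 for wild-type and 1 for beta4 null. All 9 neuronal markers on the array were kept for testing, Snap25 and Syt1 among them, and 7 were higher and 2 lower in low-ratio arrays. Their summed signal ran from 12640 to 15130 in low-ratio arrays, against 9654 to 13120 in high-ratio arrays. Of the microglial markers 3 of 5 tested were higher and 2 lower by class, of the astrocyte markers 1 of 5 was higher and 1 lower, of the oligodendrocyte markers 2 of 4 were higher and 1 lower, and of the endothelial markers 2 of 4 were higher, against 52.1% of all probe sets called in either direction. The part of cell makeup in the class differences was not tested.

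More release genes differed between the array classes than in any comparison of seizure or genotype. Within groups, 31 of the 46 member probe sets (67.39%) differed between low-ratio and high-ratio arrays, 20 higher and 11 lower (limma with a mean for each group, adjusted p under 0.05), against 52.1% of all 7350 probe sets tested. The median log2 difference was 0.29 over the members and 0.01 over all probe sets. When arrays were centred on their medians, which moved the median of all probe sets by -0.23, the same count was 31 with 16 higher and 15 lower, so that 51.61% of the called members were higher, against 64.52% before centring. The groups with both classes, which hold 19 arrays, carry this comparison, and whether the class reflects RNA quality, labelling or something else was not tested.

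**Figure D1:**
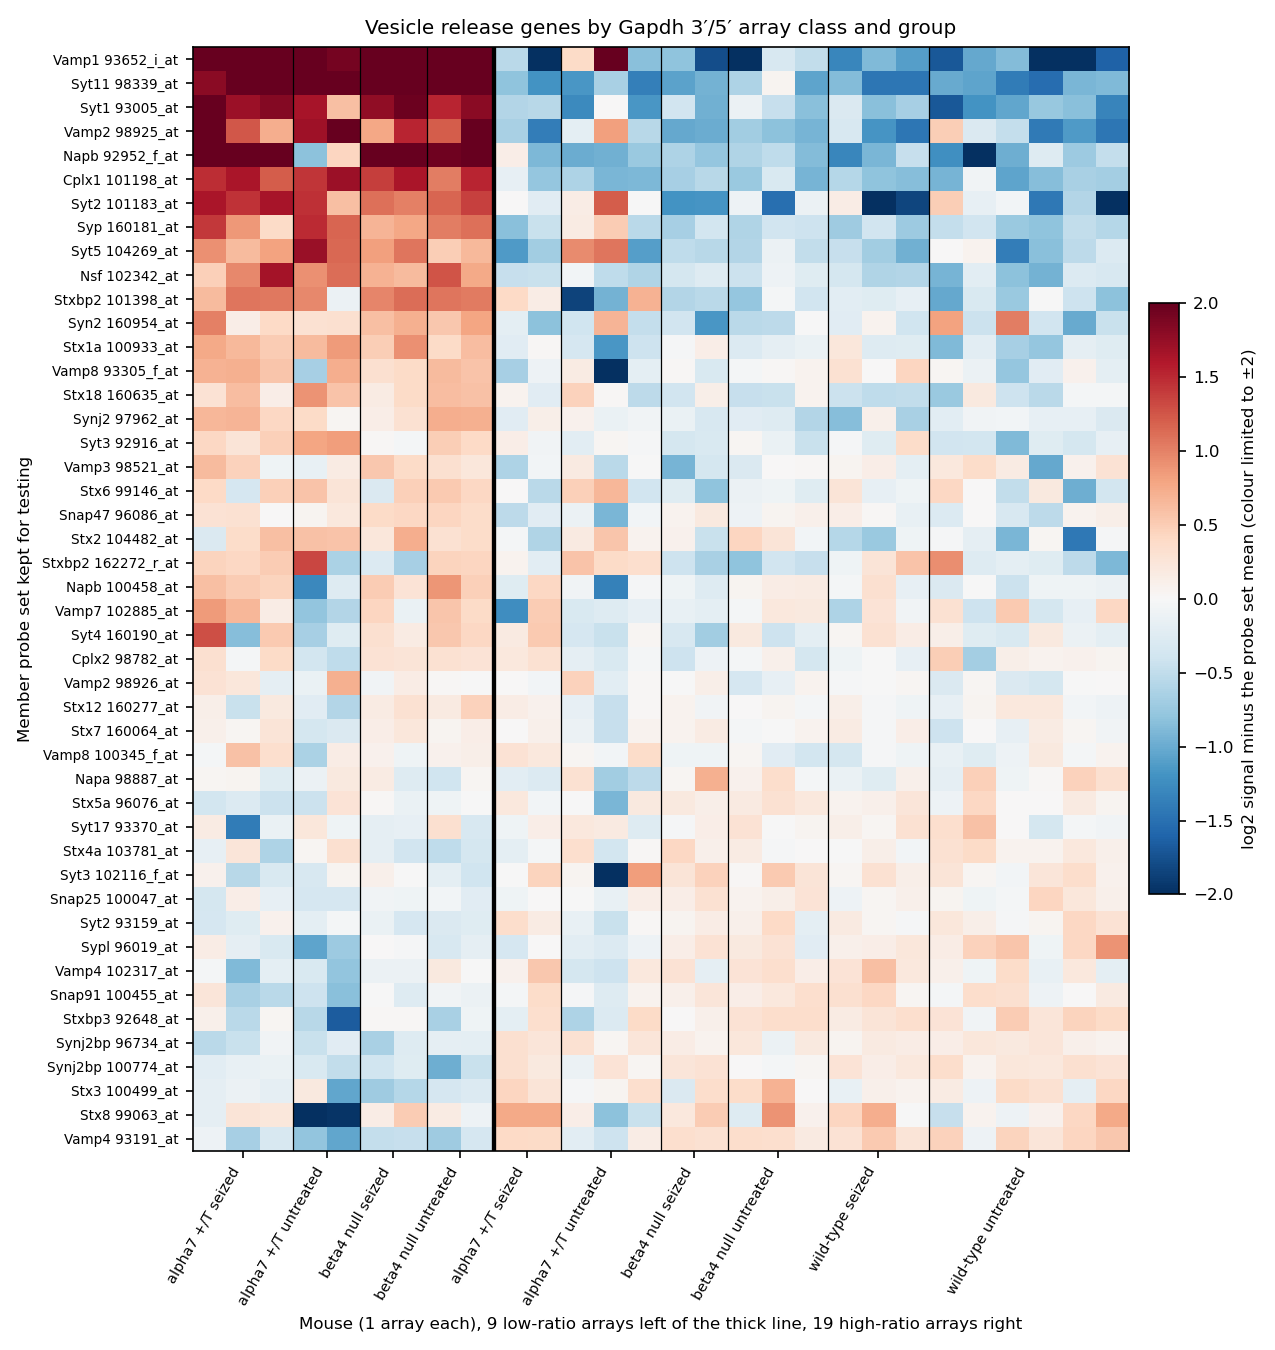
Log2 signal of the 46 member probe sets kept for testing, each centred on its own mean, in 28 mice; columns are mice, with the 9 low-ratio arrays left of the thick line and the 19 high-ratio arrays right of it, and rows run from the largest positive to the largest negative class difference. The upper rows (Vamp1, Syt11, Syt1) are high in the low-ratio arrays of every group that has them, the Vamp4 row at the foot is low there, and the Stx8 row next to it is lowest in 2 untreated alpha7 +/T arrays.

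Syt11, a synaptotagmin that does not bind calcium, had the smallest p of all members. Its signal ran from 899.9 to 1556 with a median of 1094 in the 9 low-ratio arrays, against 90.3 to 267.5 with a median of 124 in the 19 high-ratio arrays. The classes were far apart and did not overlap in any group that held both. The class difference was 8.17-fold (log2 3.03 ± 0.14, SE, limma adjusted p = 5.57e-15), and it took up 95.05% of the variance of Syt11 within groups. By group this gave a mean of 786 ± 641 in seized and 503 ± 515 in untreated alpha7 +/T mice (SD, n = 5 each), where the spread is that of the 2 classes. Wild-type mice, all of the high-ratio class, had 111 ± 27.1 when seized (SD, n = 3) and 119.8 ± 21.0 when untreated (SD, n = 6).

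Syt1, the main calcium sensor of fast release in the forebrain, followed the same pattern. It ran from 681 to 1954 with a median of 1538 in low-ratio arrays, against 139 to 454 with a median of 253 in high-ratio arrays, and rose 4.77-fold with the class (log2 2.25 ± 0.16, SE, limma adjusted p = 1.51e-11). The classes did not overlap, and untreated alpha7 +/T replicate 4 was the lowest of the low-ratio arrays. Syt5, a calcium-binding synaptotagmin also found on dense-core vesicles, was 2.48-fold higher in low-ratio arrays (log2 1.31 ± 0.21, SE, adjusted p = 1.08e-05). Here the classes overlapped, since untreated alpha7 +/T replicates 1 and 2, both high-ratio, had 519.6 and 566 and the low-ratio arrays ran from 378 to 885. Syt4, a synaptotagmin that neuronal activity induces, and Syt17, whose role is less clear, did not pass the class test, at log2 0.26 and -0.20.

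Complexin 1 and complexin 2 are small proteins that bind the assembled SNARE complex, and of these only complexin 1 passed the class test. Cplx1 ran from 946 to 1523 in low-ratio arrays, against 224 to 443 in high-ratio arrays, with no overlap and a 4.24-fold class difference (log2 2.08 ± 0.12, SE, limma adjusted p = 2.32e-13). Cplx2 ran from 150.5 to 281 in low-ratio arrays, against 134 to 304 in high-ratio arrays, and its log2 class difference of 0.14 ± 0.12 did not pass (SE, limma adjusted p = 0.35). The ranges of Cplx2 overlapped almost entirely. Whether the class differences of Cplx1 and Cplx2 themselves differ was not tested.

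Among the plasma membrane SNAREs, Snap25 had the highest mean signal of its role group and Stx1a is its main neuronal partner. Stx1a ran from 399 to 576 in low-ratio arrays, against 137 to 359 in high-ratio arrays, without overlap (log2 0.87 ± 0.13, SE, limma adjusted p = 2.06e-06). Snap25 ran from 4339 to 6086 in low-ratio arrays, against 4997 to 7460 in high-ratio arrays, and its log2 difference was -0.25 ± 0.07 (SE, adjusted p = 0.0058). The 2 SNAREs of the same complex thus had class differences of opposite sign on these arrays. Stx18 and Stx6, syntaxins of the endoplasmic reticulum and the Golgi, and Snap47 were higher in low-ratio arrays, by log2 0.63, 0.46 and 0.44. Stx3 and Stx8 were lower, by log2 values of -0.60 and -0.76, and Stx2, Stx4a, Stx5a, Stx7 and Stx12 did not pass. The Stx8 call rested on untreated alpha7 +/T replicates 3 and 4, at 5.73 and 10.1: the class medians were 43.6 in low-ratio and 43.4 in high-ratio arrays, and without both mice the log2 difference was -0.32 ± 0.22 (SE, limma adjusted p = 0.23). The Stx6 call was lost without untreated or seized alpha7 +/T replicate 5, untreated beta4 null replicate 1, or seized beta4 null replicate 2 or 4 (log2 0.38 to 0.43, adjusted p at most 0.073).

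The machinery that takes SNAREs apart and the vesicle membrane proteins were also split by class. Nsf, the ATPase of SNARE disassembly, ran from 1211 to 2765 in low-ratio arrays, against 452 to 837 in high-ratio arrays, and did not overlap (log2 1.29 ± 0.13, SE, limma adjusted p = 5.11e-09). Napa, the alpha form of its adaptor, had a log2 difference of -0.03 ± 0.14 (SE, adjusted p = 0.86). Syp, synaptophysin, ran from 192 to 416 in low-ratio arrays, against 82.9 to 210.2 in high-ratio arrays (log2 1.40 ± 0.13, SE, limma adjusted p = 7.76e-10). Only untreated alpha7 +/T replicate 2, at 210.2, lay inside the low-ratio range of Syp. Syn2, synapsin II, was 1.92-fold higher in low-ratio arrays (log2 0.94 ± 0.22, SE, adjusted p = 0.00071), but 3 high-ratio arrays reached the low-ratio range of 607 to 1118. They were untreated wild-type replicates 1 and 3, at 966 and 1126, and untreated alpha7 +/T replicate 2, at 883. Synj2, a phosphatase of phosphoinositides, was higher (log2 0.61), while Sypl and Snap91 were lower (log2 -0.30 and -0.42), Sypl no longer so without untreated alpha7 +/T replicate 3 (log2 -0.23, limma adjusted p = 0.090) or untreated beta4 null replicate 1 (-0.29, adjusted p = 0.053). Stxbp3, a Munc18 protein of many tissues, was lower (log2 -0.48).

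**Figure D2:**
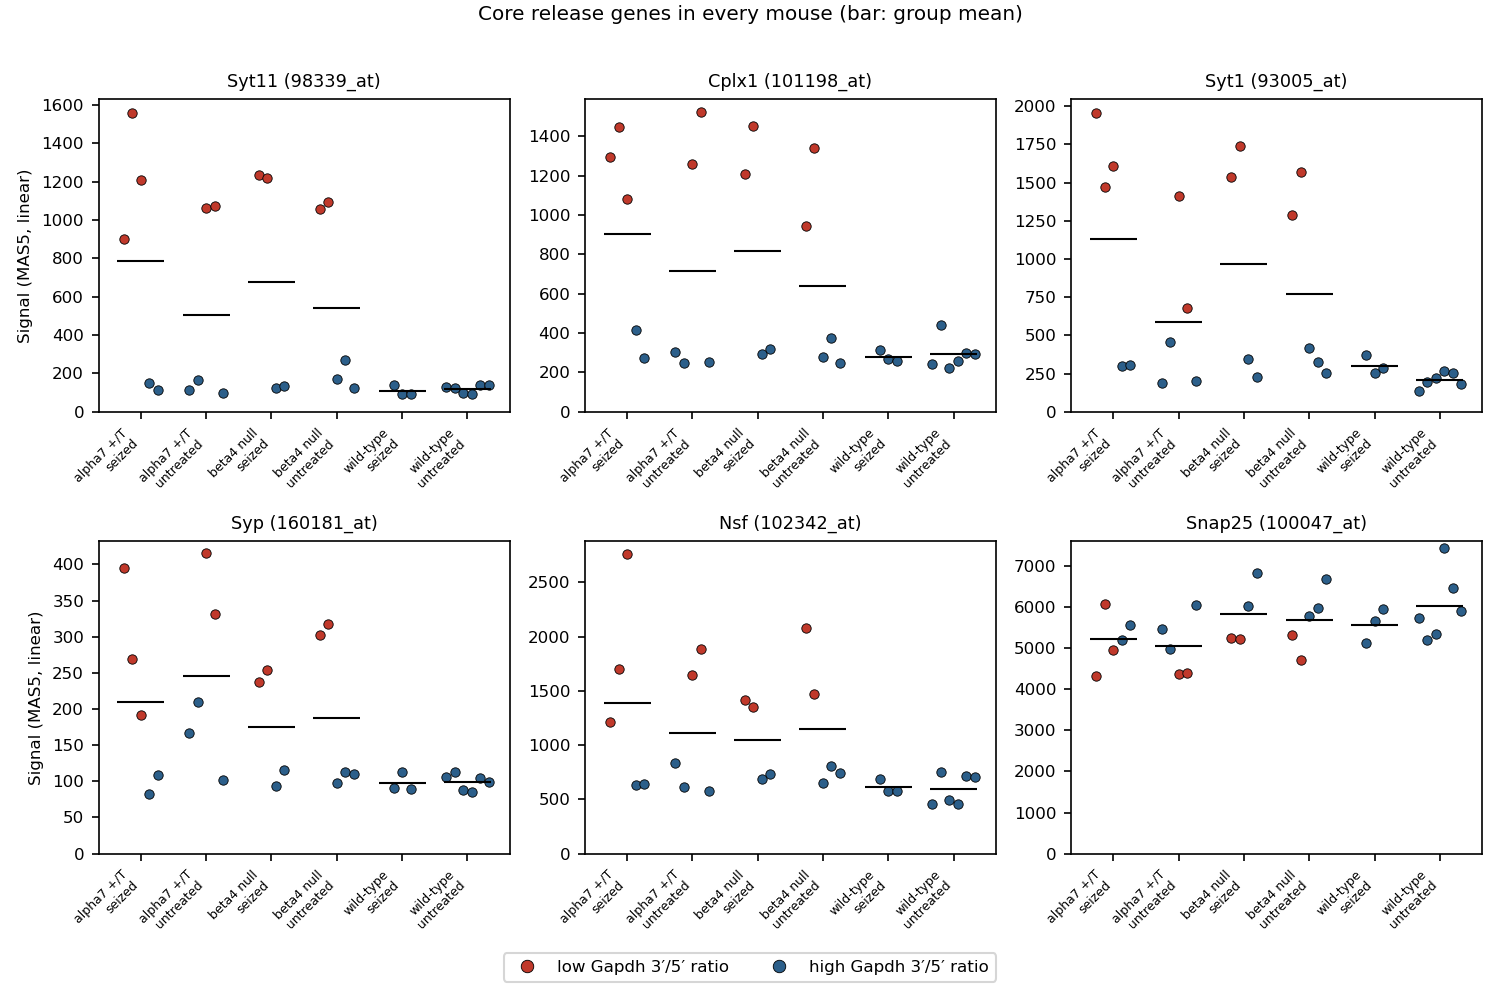
Signal of Syt11, Cplx1, Syt1, Syp, Nsf and Snap25 in each of 28 mice, on a linear axis from 0, by group; red points are low-ratio and blue points high-ratio arrays, and the bar is the group mean. In the first 5 genes the red points sit above nearly all blue points, while for Snap25 the 2 classes overlap.

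**Figure D3:**
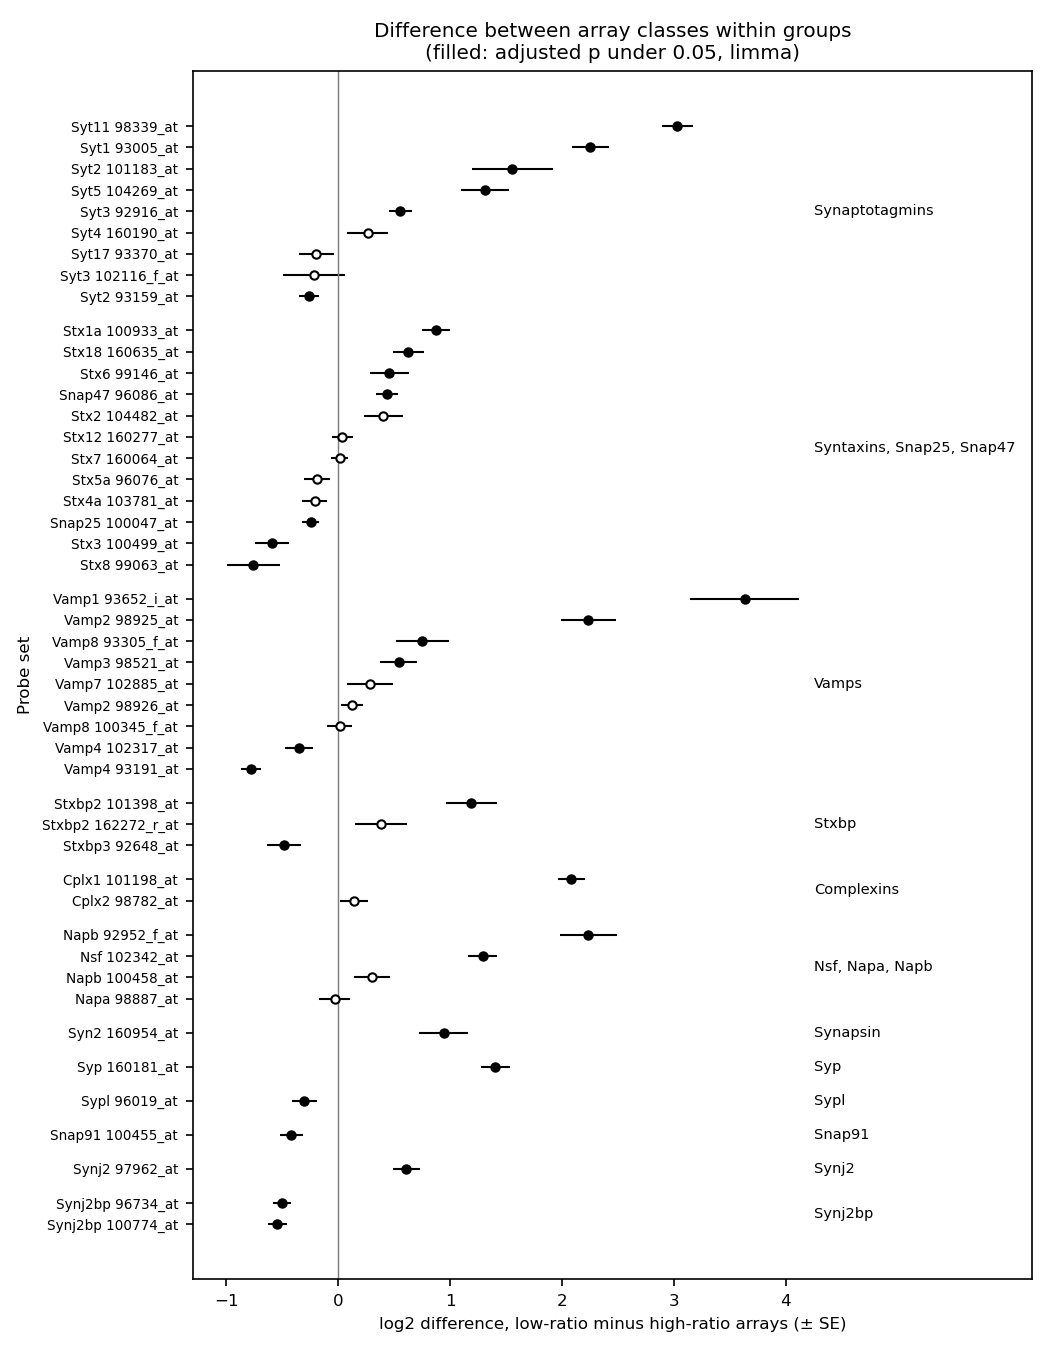
Log2 difference of low-ratio minus high-ratio arrays within groups, with its SE, for the 46 member probe sets ordered by role; filled points passed at an adjusted p under 0.05 in limma. The differences run from -0.78 for Vamp4 to 3.63 for Vamp1.

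Full separation of the classes was seen in 6 members. In 5 members (Cplx1, Nsf, Stx1a, Syt1 and Syt11) all 9 low-ratio arrays lay above all 19 high-ratio arrays, and in the other (Synj2bp, probe set 100774_at) all lay below. That is 13% of the 46 members, against 8.56% of all probe sets tested. The median spread within groups was a log2 SD of 0.41 over the members and 0.30 once class was in the fit, against 0.35 and 0.28 over all probe sets. Class took up over 50% of the variance within groups in 16 members (34.78%), against 24.44% of all probe sets, and a median of 34.7% in members, against 22.8% over all. These shares are descriptions, and no test of the members as a set was made.

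Different probe sets for the same gene did not move alike with the class. For each of the 8 genes with 2 probe sets kept, the log2 signal of the dimmer minus the brighter probe set was compared between classes within groups by an exact two-sided permutation test (6000 arrangements over 19 arrays, smallest possible p 0.00017), adjusted over the 8 genes. The Affymetrix suffixes f, i and r mark probe sets designed under relaxed rules, and those marked f can share sequence with related genes.

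Vamp2, the vesicle SNARE of most synapses, showed this most strongly. Probe set 98925_at ran from 127 to 369 in low-ratio arrays, against 28.3 to 136 in high-ratio arrays, a 4.71-fold class difference (log2 2.24 ± 0.25, SE, limma adjusted p = 2.84e-08). Probe set 98926_at ran from 1929 to 3566 in low-ratio arrays, against 1706 to 3008 in high-ratio arrays, at a log2 difference of 0.12 ± 0.10 that did not pass. The difference between the 2 probe sets shifted by log2 2.11 with the class (exact p = 0.00017, the smallest possible, adjusted p = 0.00067).

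Napb, the brain form of the Nsf adaptor, behaved in the same manner. Probe set 92952_f_at ran from 47.6 to 511 in low-ratio arrays, against 20.5 to 92.4 in high-ratio arrays, while 100458_at ran from 112 to 504 in low-ratio arrays, against 108 to 366 in high-ratio arrays. The shift between them was log2 1.93 (exact p = 0.00017, the smallest possible, adjusted p = 0.00067). The 2 low-ratio arrays of untreated alpha7 +/T mice, replicates 3 and 4, stood apart at 47.6 and 114 for 92952_f_at, where the other 7 low-ratio arrays ran from 327 to 511. Syt2, the calcium sensor of fast hindbrain synapses, shifted by log2 1.81 (exact adjusted p = 0.0013). Its probe set 101183_at was higher in low-ratio arrays (log2 1.56) and its probe set 93159_at was lower (log2 -0.26), so that the 2 disagreed in sign.

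Smaller shifts were found for the remaining pairs. Vamp4, a SNARE of the trans-Golgi network and of endosomes, shifted by 0.43 (exact adjusted p = 0.0027) although both of its probe sets were lower in low-ratio arrays, 93191_at by log2 -0.78 and 102317_at by log2 -0.35. The call of 102317_at was lost without seized alpha7 +/T replicate 5 (log2 -0.27, limma adjusted p = 0.068). Vamp8, an endosomal SNARE, shifted by 0.74 (exact adjusted p = 0.008), with log2 0.75 for 93305_f_at and 0.01 for 100345_f_at. Stxbp2, the Munc18 protein of non-neuronal secretion, shifted by -0.80 (exact adjusted p = 0.030), with log2 1.19 for 101398_at and 0.38 for 162272_r_at. The shifts of Syt3 (-0.77, exact adjusted p = 0.055) and Synj2bp (-0.04, exact adjusted p = 0.72) did not pass. Both Synj2bp probe sets were lower in low-ratio arrays, by log2 -0.50 and -0.55.

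**Figure D4:**
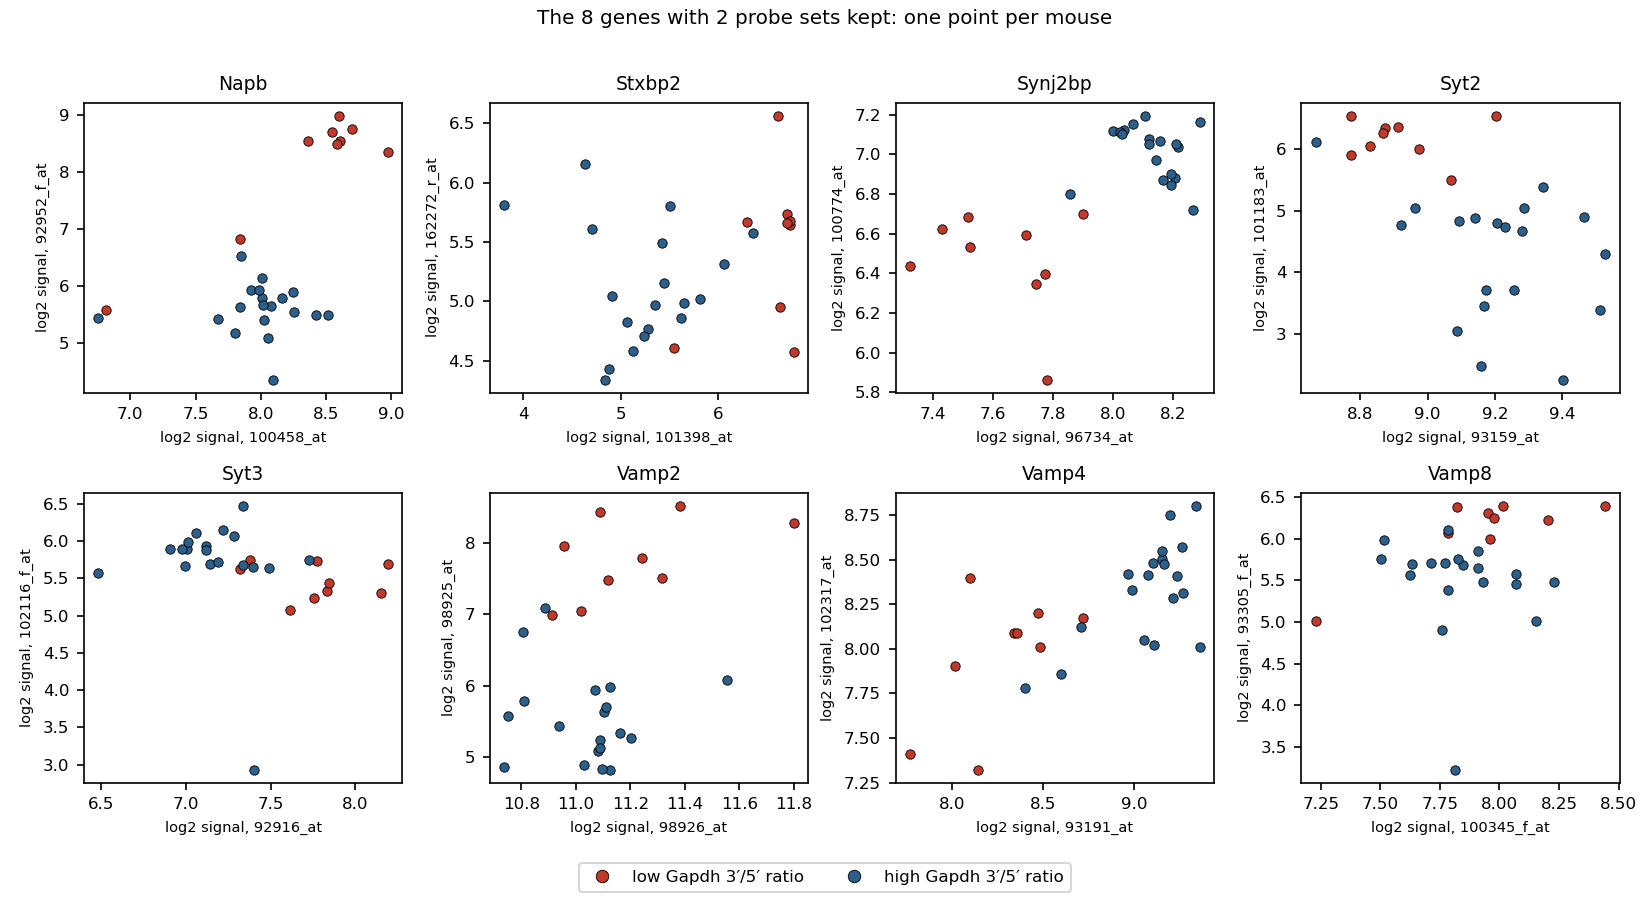
Log2 signal of the dimmer probe set (vertical axis) against the brighter one (horizontal axis) for the 8 genes with 2 probe sets kept, 1 point per mouse; red points are low-ratio and blue points high-ratio arrays. In Vamp2, Napb and Syt2 the red points lie above most blue points on the vertical axis and overlap them on the horizontal axis.

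Seizure left most of the release machinery without a detected difference. Averaged over the genotypes, 0 of 46 members passed, against 0.408% of all probe sets (limma, adjusted p under 0.05), and 4 members (8.696%) had an unadjusted p under 0.05, against 8.639% of all probe sets. The 3 smallest p-values belonged to Stx7, a syntaxin of late endosomes (log2 0.20 ± 0.07, SE, adjusted p = 0.33), to Stx8 (log2 0.66 ± 0.23, adjusted p = 0.37) and to Stx1a (log2 0.38 ± 0.18, adjusted p = 0.57). Stx7 averaged 745 ± 49.5 in seized and 597 ± 90.0 in untreated alpha7 +/T mice (SD, n = 5 each), and 739 ± 50.9 in seized (n = 3) and 663 ± 87.3 in untreated (n = 6) wild-type mice. The groups of Stx7 overlapped in both genotypes. The median log2 difference after seizure was 0.07 over the members and 0.01 over all probe sets.

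By genotype, the seizure comparison called no member in wild-type or beta4 null mice. Of the 5 activity genes of the signal check, these fits called only 2 for wild-type and 1 for beta4 null. The lack of calls there is therefore weak evidence that the members did not change. In wild-type mice 0 members passed, against 0.0544% of all probe sets, and 0 had an unadjusted p under 0.05, against 4.245%. Syt3, Vamp4 (102317_at) and Stx7 had the smallest p there, at log2 0.43, 0.32 and 0.16 (limma, adjusted p = 1.00 for each). In beta4 null mice 0 members passed, against 0.0136%, and again 0 had an unadjusted p under 0.05, against 1.741%. Stx3 (log2 -0.40), Synj2bp 100774_at (0.25) and Stx6 (-0.32) had the smallest p there (adjusted p = 1.00 for each). Snap25 averaged 5234 ± 655 in seized and 5065 ± 717 in untreated alpha7 +/T mice (SD, n = 5 each), and 5582 ± 418 in seized (n = 3) and 6025 ± 830.1 in untreated (n = 6) wild-type mice.

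In alpha7 +/T mice 2 members rose after seizure, Stx8 and Napb, or 4.348% of 46, against 2.8% of all probe sets. Stx8, a syntaxin of late endosomes that pairs with Stx7 and Vamp8, had 34.7, 47.1, 46.0, 67.0 and 66.4 in seized alpha7 +/T mice, against 43.4, 22.3, 5.73, 10.1 and 28.9 in untreated ones. The groups overlapped through untreated replicate 1 alone, and the lowest untreated values were the 2 low-ratio arrays. Both of those values lie below 11.6, the 25th percentile of signals. The log2 difference was 1.54 ± 0.38 (SE, limma adjusted p = 0.026). Stx8 exceeded its array's median on only 9 of 28 arrays. The summed signal of the 5 endothelial markers on the array, 4 of them tested, ran from 388 to 603 in seized alpha7 +/T mice, against 604 to 959.8 in untreated ones. That of the 5 oligodendrocyte markers, 4 of them tested, ran from 5976 to 6939, against 5933 to 9382. Their part in the seizure and genotype results of the alpha7 +/T mice was not tested.

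Napb (100458_at) had 416, 389, 374, 231 and 366 in seized alpha7 +/T mice, against 261, 108, 112, 229 and 270.2 in untreated ones. It rose by log2 0.94 ± 0.23 (SE, limma adjusted p = 0.026). The groups overlapped only through seized replicate 4, at 231. The other Napb probe set, 92952_f_at, did not pass. In the other genotypes Napb 100458_at averaged 302 ± 72.5 in seized (SD, n = 4) and 357 ± 90.2 in untreated (n = 5) beta4 null mice, and 284 ± 52.2 in seized (n = 3) and 245 ± 26.1 in untreated (n = 6) wild-type mice. The genotype by seizure interaction passed for 0 members, against 0.0272% of all probe sets. An unadjusted p under 0.05 was found for 3 members (6.522%), against 7.66% of all probe sets. They were Napb 100458_at, Stx8 and Cplx2 (limma F test, adjusted p = 0.41, 0.62 and 0.62).

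Both seizure calls changed with the arrays, covariates and mice used. With array class as a covariate 7 members passed, against 13.3% of all probe sets, and both Stx8 (log2 1.69, adjusted p = 0.0017) and Napb 100458_at (0.88, adjusted p = 0.0094) were among them, beside Napb 92952_f_at (1.47), Vamp4 93191_at (0.56), Stx7 (0.33), Syp (-0.56) and Syt5 (-0.91). Among low-ratio arrays alone 6 passed, against 9.28%, with Napb 92952_f_at at log2 2.62 and Stx8 at 2.47, but untreated mice are represented there by replicates 3 and 4 only. Among high-ratio arrays alone 0 passed, at log2 1.14 for Stx8 (adjusted p = 0.16) and 0.56 for Napb (adjusted p = 0.32). With age as a covariate neither passed (adjusted p = 0.33 and 0.32), and among mice of 7 weeks or older Stx8 was at 0.81 and Napb at 0.37. That subset holds 1 untreated alpha7 +/T mouse, replicate 5, which had 28.9 for Stx8 and 270.2 for Napb, so it is no test of age.

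Single mice decided both calls. Stx8 no longer passed without untreated alpha7 +/T replicate 3 (log2 1.14, adjusted p = 0.090) or 4 (1.34, adjusted p = 0.071), or without seized replicate 4 or 5 (1.44 each, adjusted p = 0.056 and 0.060). Napb no longer passed without untreated replicate 2 (0.75, adjusted p = 0.083) or 3 (0.77, adjusted p = 0.098), or without seized replicate 1 or 3 (0.88 and 0.92, adjusted p = 0.069 and 0.054). The count of members called was 0 without untreated replicate 3, 1 without untreated replicate 2 or 4 or seized replicate 1 or 3, and 5 without untreated replicate 5. How the share of all probe sets called moved in these fits is not given here.

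The promoters of these 2 genes are printed because they were the only members called after seizure. Each is the stretch of 250 bases before the annotated start, 5′ to 3′ on the strand of the gene, from RefSeq on build GRCm38.p6, and capitals mark the 20 bases nearest the start. Napb lies on the minus strand at chr2:148732421-148732670 and Stx8 on the plus strand at chr11:67966208-67966457.
Napb: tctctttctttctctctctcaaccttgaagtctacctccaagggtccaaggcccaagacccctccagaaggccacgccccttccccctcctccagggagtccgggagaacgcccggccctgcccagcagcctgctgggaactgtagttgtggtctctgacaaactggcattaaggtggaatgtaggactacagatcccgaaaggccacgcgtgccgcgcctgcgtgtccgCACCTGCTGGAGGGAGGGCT
Stx8: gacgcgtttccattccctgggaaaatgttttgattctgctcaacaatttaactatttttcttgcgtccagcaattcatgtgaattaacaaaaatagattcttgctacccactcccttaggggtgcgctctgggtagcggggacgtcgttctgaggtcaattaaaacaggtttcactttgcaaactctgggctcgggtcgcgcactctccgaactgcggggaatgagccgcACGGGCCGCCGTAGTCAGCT
Both strands of the 300 bases from 250 before to 50 after the start were searched for the full cyclic AMP response element (TGACGTCA), its core (TGACG, which the full element contains), the AP-1 motif (TGANTCA), an Egr1 motif (GCGNGGGCG) and TATAAA. None of these letters occurred in either window. Of 32851 promoters of the same length, 1.79% held the first, 20.81% the second, 7.808% the third, 5.552% the Egr1 motif and 13.62% TATAAA. A promoter was found for 39 of the 47 member genes. Of the 52 member promoters counted, 2 held the full element, 14 its core, 4 AP-1, 5 Egr1 and 2 TATAAA. The 52 do not cover every chromosome, and Syt4 is not represented among them. The 39 genes and the 32851 promoters were counted without that limit, so the member counts and the shares above are not like for like.

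Among untreated mice, the alpha7 +/T group differed from the wild-type group in 9 members (19.57%), against 16% of all probe sets, 5 higher and 4 lower, a share close to that of the array. Centred on array medians, which moved the median of all probe sets by -0.24, 12 members passed with 1 higher (8.333%) and 11 lower, against 55.56% higher before centring. The share of all probe sets called after centring is not given here. Higher were Syt3 92916_at (log2 0.68), Stx2 (0.82), Vamp1 93652_i_at (3.51), Syp (1.14) and Syt5 (1.25), and lower were Sypl (-0.87), Stxbp3 (-0.84), Stx8 (-1.31) and Vamp4 93191_at (-0.80), with limma adjusted p between 0.0072 and 0.049. Of the 5 that were higher, Syt3, Vamp1, Syp and Syt5 were also higher in low-ratio arrays, and all 4 that were lower were also lower there. The alpha7 +/T group had 2 low-ratio arrays of 5 and the wild-type group none of 6. These 2 arrays enter the class comparison as well, so the matching signs are not independent and are partly built in.

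Sypl had the smallest p and passed in 10 of the 12 settings tried, more than any other of the 9. It had 306, 294, 172, 214 and 333 in untreated alpha7 +/T mice, against 394, 488, 519, 334, 472 and 659.5 in untreated wild-type mice. No alpha7 +/T value reached the wild-type range, although the nearest pair, 333 and 334, lay next to each other. The log2 difference of -0.87 ± 0.17 (SE, limma adjusted p = 0.0072) was -0.75 with array class as a covariate, -0.87 with age and -0.85 with title prefix as a covariate, and passed in each. It passed in 28 of 28 fits that left out 1 mouse, and did not pass among high-ratio arrays alone (-0.59, adjusted p = 0.084) or among mice of 7 weeks or older, with 1 alpha7 +/T mouse (-0.50).

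Stx2, a syntaxin of many tissues, also had no overlap. How many of all probe sets separate untreated alpha7 +/T from untreated wild-type mice is not given here. The lack of overlap of Sypl, Stx2 and Vamp1 is therefore not read as particular to them. The signals of Stx2 were 154, 199, 205, 203 and 143 in untreated alpha7 +/T mice, against 134, 119.9, 72.5, 139, 50.4 and 134 in untreated wild-type mice. The wild-type mice varied more than the alpha7 +/T mice. The log2 difference of 0.82 ± 0.25 (SE, limma adjusted p = 0.032) no longer passed with array class (0.66, adjusted p = 0.071) or age (0.79, adjusted p = 0.057) as a covariate, or without wild-type replicate 3 or 5 or alpha7 +/T replicate 2, 3 or 4 (log2 0.61 to 0.78).

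Vamp1, the vesicle SNARE of hindbrain and spinal synapses, had the widest spread. Probe set 93652_i_at had 113, 489.6, 781, 327 and 48.5 in untreated alpha7 +/T mice, against 26.7, 42.8, 47.5, 8.76, 5.42 and 28.1 in untreated wild-type mice. The groups did not overlap, but the lowest alpha7 +/T value lay next to the highest wild-type value, and 2 of the 3 highest values came from low-ratio arrays. The log2 difference was 3.51 ± 1.11 (SE, limma adjusted p = 0.035), and 2.06 with array class as a covariate. It no longer passed without alpha7 +/T replicate 2, 3 or 4 or wild-type replicate 3, 4, 5 or 6 (log2 3.08 to 3.76).

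The set of calls changed with array class, age and title prefix. With array class as a covariate 7 of the 46 passed, against 9.1% of all probe sets, all of them among the 9, with Stx2 and Syt5 lost. When untreated mice were limited to those aged 6 weeks whose titles begin with LT, a comparison of 4 alpha7 +/T with 3 wild-type mice of like age, 4 passed, against 9.22%: Sypl, Stxbp3, Syt3 and Syt5. The subset is not balanced by class, since alpha7 +/T replicates 3 and 4 are low-ratio arrays and all its wild-type arrays are high-ratio. Among high-ratio arrays alone 0 passed, and with title prefix as a covariate only Sypl did. Among mice of 7 weeks or older, where 1 alpha7 +/T mouse was left, replicate 5, 0 passed, with Syt5 at log2 -0.57 and Stxbp3 at 0.01. The count was 1 without alpha7 +/T replicate 3 or 4, 15 without replicate 5, 3 without wild-type replicate 3, 5 without replicate 5 and 4 without replicate 6. The share of all probe sets called in the fits without 1 mouse is not given here, so these changes are not read as particular to the release genes.

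Of the 9, Syp and Syt5 passed in the fewest fits that left out 1 mouse. Untreated alpha7 +/T mice had 166, 210.2, 416, 331 and 102 for Syp, against 106, 113, 88.5, 84.6, 105 and 99.4 in wild-type mice, and replicate 5 lay in the wild-type range. Syt5 had 519.6, 566, 885, 593 and 125 in untreated alpha7 +/T mice, against 269, 282, 103, 149.9, 187 and 223 in wild-type mice, and again replicate 5 lay among the wild-type values. Syp passed in 15 of 28 such fits and Syt5 in 12 of 28. Syt3 92916_at had 142, 169, 284, 293 and 162 in untreated alpha7 +/T mice, against 126, 127, 89.5, 139, 129 and 146 in wild-type mice, and passed in 25 of 28 such fits, the exceptions being without alpha7 +/T replicate 3 or 4 or wild-type replicate 3 (log2 0.55 to 0.59). Its other probe set, 102116_f_at, did not pass. Vamp4 93191_at had 388, 338, 259, 218 and 501 in alpha7 +/T mice, against 616, 418, 614, 533, 604 and 657 in wild-type mice, and passed in 24 of 28 fits, the exceptions being without alpha7 +/T replicate 3 or 4 or wild-type replicate 3 or 6 (log2 -0.77 to -0.65). The other Vamp4 probe set, 102317_at, did not pass. Stxbp3 had 81.4, 103, 84.7, 39.4 and 161 in alpha7 +/T mice, against 150.4, 118, 176, 147, 170.1 and 163 in wild-type mice. Its groups overlapped through replicate 5 of the alpha7 +/T mice, and it passed in 26 of 28 fits, but not without alpha7 +/T replicate 3 or 4 (log2 -0.84 and -0.56). Stx8 passed in 25 of 28, but not without alpha7 +/T replicate 3 or 4 or wild-type replicate 6 (log2 -0.91, -1.11 and -1.18).

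**Figure D5:**
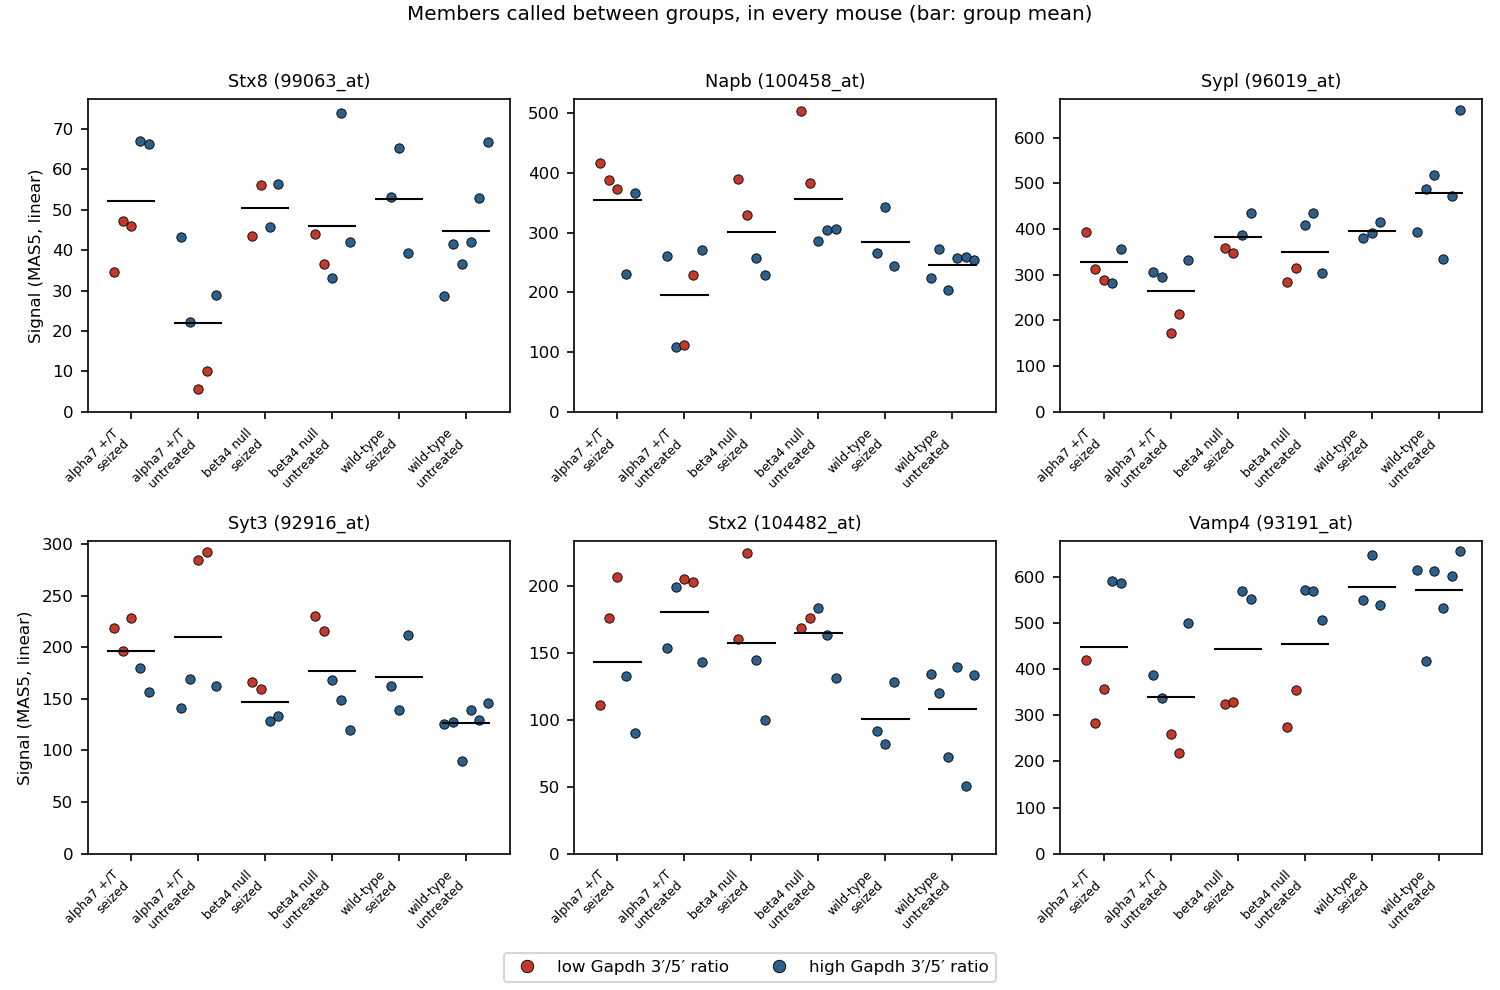
Signal of Stx8, Napb, Sypl, Syt3, Stx2 and Vamp4 in each of 28 mice, on a linear axis from 0, by group; red points are low-ratio and blue points high-ratio arrays, and the bar is the group mean. The untreated alpha7 +/T mice are the lowest group for Stx8, Napb, Sypl and Vamp4 by mean, and 2 of their low-ratio arrays give the lowest Stx8 signals.

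Untreated alpha7 +/T mice differed from untreated beta4 null mice in Napb 100458_at alone, 1 member of 46 or 2.174%, against 2.48% of all probe sets. The comparison shares those alpha7 +/T mice with the comparisons above. Its signal ran from 108 to 270.2 in untreated alpha7 +/T mice, all below the 504, 383, 286, 305 and 306 of untreated beta4 null mice, and the log2 difference of alpha7 +/T minus beta4 null was -0.94 ± 0.23 (SE, limma adjusted p = 0.035). How many of all probe sets separate these groups is not given here. Napb 100458_at passed in 20 of 28 fits that left out 1 mouse. Without alpha7 +/T replicate 2, 3 or 4, or without any 1 of the 5 beta4 null mice, it did not pass (log2 -1.03 to -0.76). Stx8, whose groups overlapped, and Stx12, an endosomal syntaxin, did not pass, at log2 -1.34 ± 0.38 (SE, limma adjusted p = 0.055) and -0.42 ± 0.14 (adjusted p = 0.085).

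With array class as a covariate, 6 members were lower in untreated alpha7 +/T than in beta4 null mice, against 12.8% of all probe sets called. These were both probe sets of Napb and of Vamp4, Stx8 and Stx12. Among low-ratio arrays alone, 6 passed, against 8.12%, with Napb 92952_f_at at log2 -2.22 and Stx8 at -2.40. That comparison holds 2 mice of each genotype. With age or title prefix as a covariate, among high-ratio arrays or among mice of 7 weeks or older, 0 passed.

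No member passed between beta4 null and wild-type mice. Untreated, 0 of 46 passed, against 0.0136% of all probe sets, while 12 members (26.09%) had an unadjusted p under 0.05, against 12.94% of all. Synj2bp 100774_at (log2 -0.52), Stx2 (0.69) and Sypl (-0.44) had the smallest p (limma, adjusted p = 0.35, 0.36 and 0.37). With array class as a covariate 5 of the 46 (10.87%) had an unadjusted p under 0.05, against 6.844% of all probe sets. Seized, 0 passed, against 0.0136%, and 0 had an unadjusted p under 0.05, against 4.422% of all probe sets. The smallest p there belonged to Napb 92952_f_at, Stx2 and Syt11 (adjusted p = 0.76 for each).

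No member passed between seized alpha7 +/T mice and the other seized genotypes. Against wild-type mice 0 members passed, against 0% of all probe sets. There 8 members (17.39%) had an unadjusted p under 0.05, against 12% of all probe sets. Syt2 101183_at, Synj2 and Napb 92952_f_at led them (log2 2.27, 0.80 and 2.19, limma, adjusted p = 0.40 for each). With array class as a covariate 3 members (6.522%) had such a p, against 4.558% of all probe sets. Against beta4 null mice 0 passed, against 0.068%. An unadjusted p under 0.05 was found for 1 member (2.174%), against 6.136% of all probe sets: Stxbp2 162272_r_at (log2 0.75, adjusted p = 0.79). Vamp8 100345_f_at and Syt3 92916_at came next (log2 0.31 and 0.41, adjusted p = 0.85 and 0.86). Seized wild-type mice number 3, which limits what the comparison with them could show.

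Genes that work beside the release machinery were split by class in both directions too. Of 24 listed genes of vesicle endocytosis, 19 were tested and 9 were higher and 6 lower in low-ratio arrays, in a comparison that called 52.1% of all probe sets. Those higher included Dnajc5, a chaperone of vesicle proteins, and Ap2b1, a subunit of the clathrin adaptor (log2 2.01 and 1.78), and those lower included Dnm1, the neuronal dynamin, and Sh3gl3 (log2 -0.63 and -0.75). Of 30 listed active zone and priming genes, 11 were tested, with 3 higher, such as Lin7b (log2 1.78), and 4 lower, such as Cadps and Pclo (-0.56 and -0.50). Of 18 transmitter loading genes 10 were tested, 3 higher, such as the proton pump subunit Atp6v0a1 (2.41), and 4 lower, such as the GABA transporter Slc32a1 (-0.81). Of 9 presynaptic calcium channel genes 4 were tested and 3 were higher, Cacna1b, Cacnb2 and Cacna2d1 (0.86, 1.23 and 1.18). All of these used limma at an adjusted p under 0.05.

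After seizure in alpha7 +/T mice, 3 of the 19 endocytosis genes passed, against 2.8% of all probe sets, with Cltc, the clathrin heavy chain, higher (log2 0.50) and Bin1 and Ap2a2 lower (-0.52 and -0.58). None of the 11 active zone, 10 transmitter loading or 4 calcium channel genes passed there. Between untreated alpha7 +/T and untreated wild-type mice, 5 endocytosis genes passed (Bin1, Ap2a2 and Hspa8 higher, Cltc and Eps15 lower), as did 4 active zone genes (Lin7b higher, and Cadps, Lin7c and Cask lower) and 2 of the 10 transmitter loading genes (Atp6v0a1 higher and Atp6v1d lower), against 16% of all probe sets. Bin1, Ap2a2 and Cltc had opposite signs in the 2 comparisons, which share the untreated alpha7 +/T mice. Averaged over genotypes, 0 genes of the 4 lists passed after seizure.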

How the data were processed

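Whole brain RNA of 28 mice was measured, with 1 array for each mouse. The authors deposited 1 linear signal intensity for each probe set, computed with MAS5 per the submitters' processing notes, with a version not given in the sources used here. Trimmed of 2% at either end, the signal averaged 150.0 on every array, so the arrays had been scaled, and values were used as deposited, on the log2 scale. There are no detection calls in the values used, and precision is limited by how many arrays there are.

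Of the 12488 probe sets, 66 controls were left out, 10833 had 1 gene symbol in the platform annotation, 396 had several and 1193 were not listed. Filtering left 7350 probe sets for 5599 genes. Differences were tested with limma 3.58.1 (under R 4.3.3, by lmFit with 1 mean per group over all 28 arrays, then eBayes with trended variance), two-sided, with Benjamini-Hochberg adjustment over all 7350 at 0.05. The fit was tested on simulated data. Groups came from the sample labels, each sample is 1 mouse, and within-group rank correlations ran from 0.84 to 0.976. No 2 arrays were identical.

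Members, lists, tests and the array classes were chosen with earlier results of these data known. Named were all members called in a comparison (up to 12) or else the 3 with the smallest p, the brightest member of each role, a fixed list of core genes, and genes with several probe sets; Syt4, Syt17 and other members were added to complete the role groups. Alternatives were quantile normalization, median centring, no filter, flooring signals at 11.6, the 25th percentile, an untrended eBayes, class, age, sex or title prefix as covariates, and subsets of mice; fits of low-ratio arrays alone, of LT mice of 6 weeks and of Stx8 by class without 2 mice were chosen after seeing the data. Promoters are RefSeq's (GRCm38.p6).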

Additional observations from a re-analysis of the deposited data

Results flagged for a closer look

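In groups of 4 to 6 mice, the highest or lowest mouse was set against the others of its group for the 10 members called in a seizure or genotype comparison. Of 50 group values examined, 4 had a mouse far from the rest by Dixon's 95% limit, and chance alone flags about 1 in 20. Seized alpha7 +/T replicate 4 was the lowest of its group for Napb 100458_at, at 231.1, with the nearest mouse at 366.2. Untreated alpha7 +/T replicate 5, the only one of its group older than 6 weeks, was the lowest for Syt5, at 124.5, with the nearest at 519.6. Untreated wild-type replicate 3 was the lowest for Syt3 92916_at, at 89.45, with the nearest at 125.9. Seized beta4 null replicate 4 was the highest for Stxbp3, at 133.9, with the nearest at 126.3. All 4 were high-ratio arrays.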

How the results depend on the processing

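The counts of members called changed mainly in comparisons of alpha7 +/T mice. Calls over all probe sets moved with the fit too. Between untreated alpha7 +/T and wild-type mice they were 16%, and 9.1% with array class as a covariate. That share is not given for every fit, so the counts below are not read as particular to the release genes. For seizure in alpha7 +/T mice, where 2 passed, the count was 1 after median centring, 7 with array class as a covariate, 6 among low-ratio arrays alone, and 0 among high-ratio arrays alone, with age as a covariate or among mice of 7 weeks or older. Leaving out 1 mouse in turn gave 0 to 5. For untreated alpha7 +/T against wild-type mice, where 9 passed, it was 4 with age as a covariate, 1 with title prefix as a covariate, 4 among LT mice of 6 weeks, and 0 among high-ratio arrays or mice of 7 weeks or older; leaving out 1 mouse gave 1 to 15. The subset of 7 weeks or older holds 1 untreated alpha7 +/T mouse, replicate 5, assumed to vary like the other groups, so its counts of 0 say little; there the log2 difference was 0.013 for Stxbp3 and -0.57 for Syt5, opposite in sign to the values over all mice. For untreated alpha7 +/T against beta4 null mice, where 1 passed, it was 2 after quantile normalization or with sex as a covariate, 6 with array class as a covariate and 6 among low-ratio arrays, and 0 among high-ratio arrays, with age or title prefix as a covariate or among mice of 7 weeks or older; leaving out 1 mouse gave 0 to 7. The subsets hold fewer mice, and otherwise the cause was not tested. The class comparison, with 31 called, gave 29 to 35 when 1 mouse was left out. In every other comparison 0 members passed in each of the fits that left out 1 mouse. No paired analysis was possible because the labels give the mice no replicate numbers shared between groups. Seized wild-type mice number 3, and weak signals such as those of Stx8 cannot be set against a background value.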

Other observations

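Of the member probe sets left out as too dim, Synj2 100676_at was singled out after its values were seen. It ran from 1.49 to 2.93 in seized and from 3.31 to 10.3 in untreated alpha7 +/T mice, without overlap. All of these lie below 11.6, the 25th percentile of signals, and Synj2 100676_at exceeded its array's median on 0 arrays. How many of all probe sets separate these 2 groups is not given here. Wild-type mice spanned both ranges, from 1.88 to 14.1 when seized and from 0.967 to 6.42 when untreated. The Synj2 probe set that was kept, 97962_at, did not pass after seizure in alpha7 +/T mice.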
